A study of Homo sapiens with 6 samples.

Results

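The genes described here encode the initiation and elongation factors of cytosolic translation. They were taken by symbol, as every row of the deposited expression table whose symbol begins with EIF or EEF, without the eIF2 kinase genes EIF2AK1 to EIF2AK4. The rule gave 65 of the 17911 genes in the table, 50 with an EIF and 15 with an EEF symbol, and it used no measured value. The 6 RNA-seq libraries were made from HL-60, a human leukaemia cell line of promyelocytic type. Of these, 3 libraries came from cells given 10 uM amiodarone for 24 h and 3 are labelled control. Amiodarone is an antiarrhythmic drug and a cationic amphiphilic compound. The labels do not say whether controls received a vehicle or whether libraries of a group came from separate cultures, so the spread behind each p-value is that between libraries and could be technical. In such bulk samples fewer cells of a type and less RNA per cell cannot be told apart.

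Initiation brings the small ribosomal subunit, charged with initiator tRNA by eIF2, to the capped end of an mRNA. The cap is bound by eIF4E, which joins the scaffold eIF4G and the RNA helicase eIF4A in the eIF4F complex, and the 4E-binding proteins keep eIF4E from eIF4G when mTORC1, a growth kinase, is inactive. The multi-subunit eIF3 links eIF4G to the small subunit, eIF1 and eIF1A govern start codon choice, and eIF5 and eIF5B release the factors and join the large subunit. eIF2B recharges eIF2 with GTP and is inhibited by eIF2 that a stress kinase has phosphorylated. During elongation eEF1A delivers aminoacyl-tRNA, the eEF1B subunits recharge it, and eEF2 moves the ribosome. Many of these mRNAs, like those of ribosomal proteins, start with a run of pyrimidines called a TOP tract, through which mTORC1 controls their translation.

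Such tracts could be read at the annotated starts of several factor genes. The windows below run from 10 bases before to 20 bases after a start in RefSeq (GRCh38.p14), 5′ to 3′ on the gene's strand, and capitals mark an unbroken run of C and T that opens with C at the start itself. They are shown because they divide the factors in the comparison by start sequence given further on.
EEF1A1, chr6:73521013-73521042, minus strand: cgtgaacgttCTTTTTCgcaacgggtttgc
EEF2, chr19:3985444-3985473, minus strand: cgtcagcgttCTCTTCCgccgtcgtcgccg
EEF1B2, chr2:206159885-206159914, plus strand: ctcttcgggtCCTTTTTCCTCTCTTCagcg
EIF4B, chr12:53006446-53006475, plus strand: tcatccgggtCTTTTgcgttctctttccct
EIF3F, chr11:7987327-7987356, plus strand: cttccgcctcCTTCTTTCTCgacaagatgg
EIF2A, chr3:150546777-150546806, plus strand: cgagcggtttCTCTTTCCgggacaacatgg
EIF4A2, chr3:186783567-186783596, plus strand: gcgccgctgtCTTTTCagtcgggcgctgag
EIF4G1, the first of its starts, chr3:184314596-184314625, plus strand: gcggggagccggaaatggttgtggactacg
EIF3B, chr7:2354817-2354846, plus strand: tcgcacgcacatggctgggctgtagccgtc
EIF1, chr17:41688875-41688904, plus strand: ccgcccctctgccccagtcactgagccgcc
The first 7 windows hold a tract, and the windows of EIF4G1, EIF3B and EIF1 do not. EEF1B2 also has an annotated start without a tract.

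The deposited values behave like RPKM, a level per length of gene and per depth, so levels can be set beside each other between genes; their unit is not stated. They summed to 568654 to 574483 in amiodarone and 534486 to 539030 in control libraries. Libraries correlated within a group at 0.9975 to 0.9982 on the log2 scale and between groups at 0.959 to 0.960. The spacing of low values gave estimates of 16100000 to 16500000 reads or fragments for amiodarone and 17500000 to 18500000 for control libraries. These are weak, as 38.9% to 46.0% of these values lay within 0.15 of a whole step, where 30% would by chance. The 7 markers of promyelocytes were all expressed, with a summed value of 3120 to 3178 in amiodarone and 6949 to 7071 in control libraries, most of it MPO. Of these 5 were called lower, MYB was called higher (log2 fold change 0.14) and CD33 was not called (0.06). Summed markers of erythroid, T and B cells and megakaryocytes stayed at 2.39 or less for each type, and those of monocytes and macrophages were 42.8 to 46.3 with amiodarone and 32.5 to 34.8 in controls, most of it CD68. The part of these marker changes in the results below was not tested.

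More factor genes were lower than higher after amiodarone, and the falls reached about 1 on the log2 scale in EIF4G1, EEF2KMT and EIF3B. Of the 65 genes 62 were tested, and each of these had a value of at least 2.08 in every library. limma on log2(value + 1), with Benjamini-Hochberg adjustment over all 11445 tested genes, called 15 higher and 36 lower at an adjusted p under 0.05, and 11 were not called. This is 82.3% of the factor genes, where 78.3% of all tested genes were called in either direction. Called lower were 58.1% of them, against 44.8% of all tested genes, and called higher 24.2%, against 33.5%. Their median log2 fold change was -0.12, and that of all tested genes -0.06. The split moved with the scaling, to 8 higher and 38 lower with equal sums (3099 and 5908 over all genes), 16 and 32 with a trimmed mean of log ratios (4066 and 4890) and 18 and 30 with the median of ratios (4205 and 4746). Calls with a log2 fold change under -0.5 numbered 14, or 22.6%, where all tested genes gave 16.0%, and those above 0.5 numbered 6, or 9.68%, where all gave 11.9%. The groups did not overlap in 51 factor genes, 82.3%, and in 79.3% of all tested genes.

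**Figure D1:**
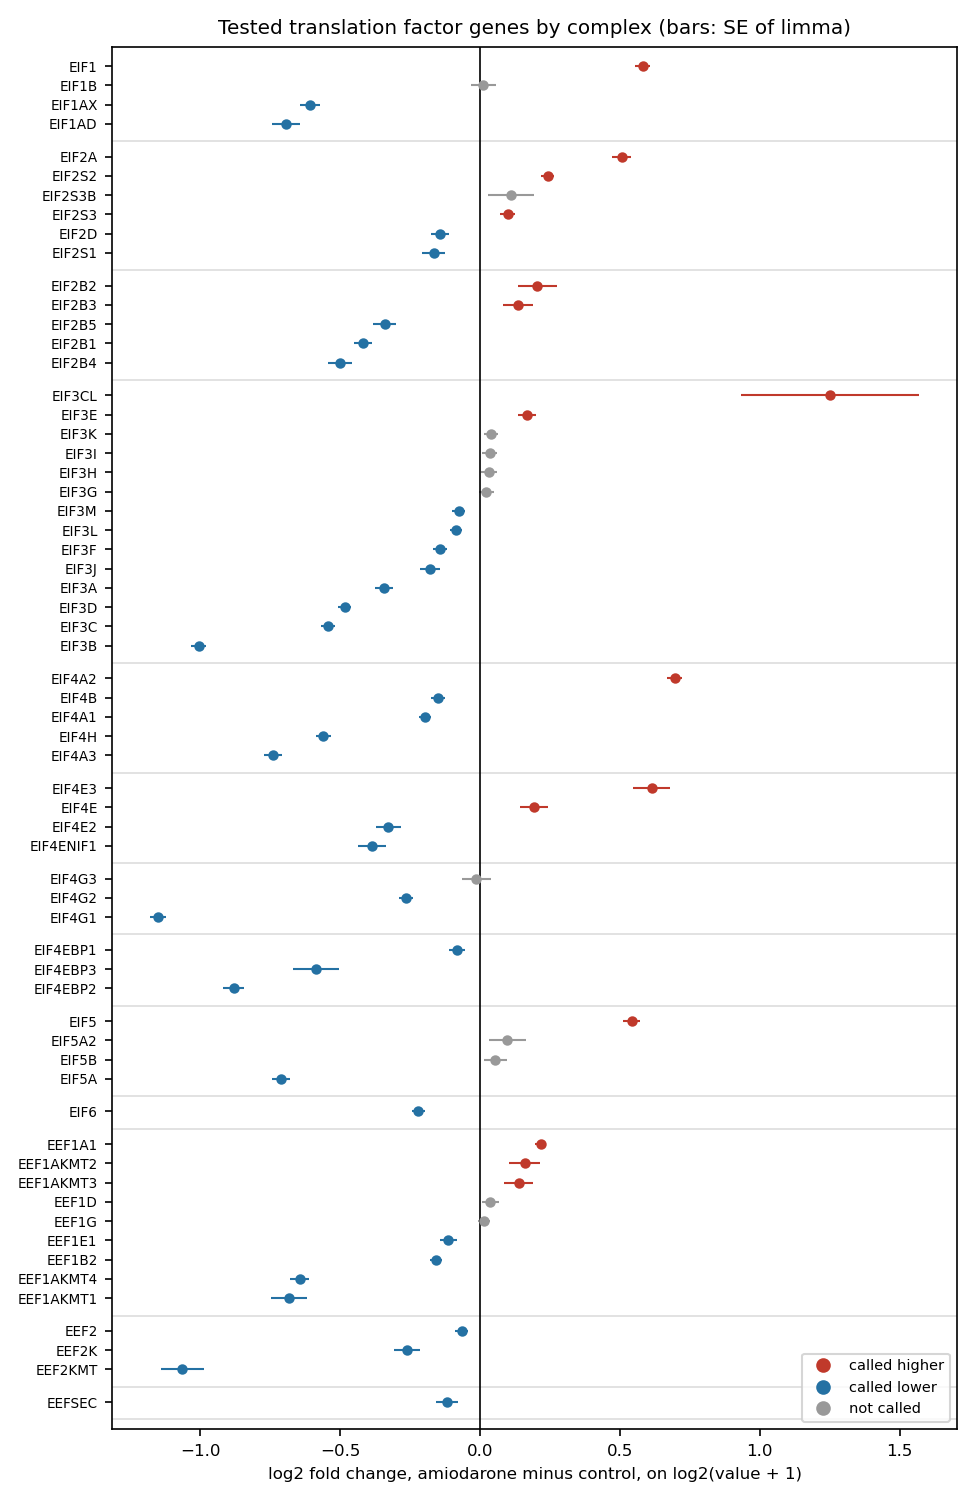
Log2 fold change of each of the 62 tested factor genes, amiodarone minus control, on log2(value + 1), grouped by complex; points are estimates, bars their standard error, and colours the call of limma. EIF4G1 at -1.15, EEF2KMT at -1.06 and EIF3B at -1.01 lie farthest to the left, and EIF3CL, a near-identical copy of EIF3C, at 1.25 farthest to the right.

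The 3 genes that were not tested had values too low for the filter. EEF1A2, the form of eEF1A known from muscle and neurons, lay between 0.18 and 0.33 in amiodarone and between 0.19 and 0.24 in control libraries. EIF5AL1, a copy of EIF5A, lay between 0.35 and 0.66 with amiodarone and between 0.39 and 0.49 in controls. The readthrough gene EEF1AKMT4-ECE2 did not exceed 0.02 in any library.

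The 4 most abundant factor genes moved little. The 4 genes with a mean of at least 1000, EEF1A1, EEF1G, EEF2 and EEF1B2, had log2 fold changes between -0.16 and 0.22. The median absolute log2 fold change was 0.15 among the 26 tested genes with a mean of at least 100 and 0.34 among the 36 below it. Those 26 genes still ranged from -0.71 (EIF5A) to 0.70 (EIF4A2). Other genes of similar level were not compared. The summed level of all factor genes was 16807 to 16971 in amiodarone and 16621 to 16794 in control libraries. This was 1.01 times as high, although most factors were lower. Of the 4 most abundant genes only EEF1A1 was called higher, averaging 5385 with amiodarone and 4635 in controls. EEF2 and EEF1B2 were called lower and EEF1G was not called. The initiation factors alone summed to 5506 ± 22.5 with amiodarone and 5800 ± 11.8 in controls (SD, n = 3 each), and the elongation factors to 11409 ± 111 with amiodarone and 10882 ± 87.4 in controls. As a share of all values, the factor genes made up 2.95% to 2.98% with amiodarone and 3.11% to 3.12% in controls. The initiation factors made up 0.959% to 0.969% with amiodarone and 1.078% to 1.085% in controls. For the elongation factors the share was slightly lower too, at 1.980% to 2.021% with amiodarone and 2.023% to 2.037% in controls, although their sum was higher.

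**Figure D2:**
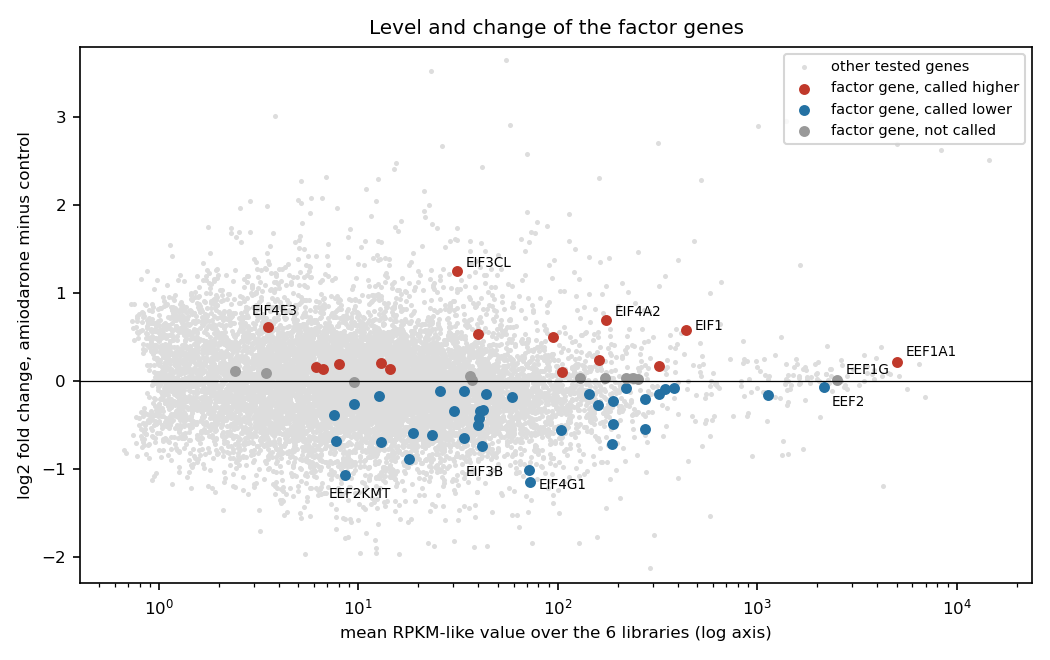
Mean RPKM-like value over the 6 libraries (log axis) against the log2 fold change, amiodarone minus control, with factor genes coloured by call and the other tested genes in grey. EEF1A1, EEF1G and EEF2 at the right lie close to 0, while EIF4G1 and EIF3B, with means under 100, lie near -1.

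The scaffold of the cap-binding complex was among the factor genes that fell most. EIF4G1, the main eIF4G, had values of 45.2, 44.9 and 44.5 in amiodarone libraries, against 99.2, 103 and 100 in control libraries. Each amiodarone value was under 0.5 of the lowest control value, and the log2 fold change was -1.15 ± 0.027 (SE; limma, adjusted p = 4.68e-11). EIF4G2, which encodes DAP5, a relative that lacks the site for eIF4E, had 143, 144 and 144 with amiodarone and 178, 169 and 172 in controls. This is a smaller fall, of 0.27 on the log2 scale (limma, adjusted p = 2.34e-06), again without overlap. EIF4G3, a second full-length scaffold, had 8.77, 9.88 and 9.68 with amiodarone and 9.19, 9.64 and 9.76 in controls, and was not called (limma, adjusted p = 0.828).

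The helicase genes went in both directions. EIF4A2 had values of 210, 217 and 221 with amiodarone, against 136, 132 and 131 in controls. All amiodarone libraries lay above all controls, with a log2 fold change of 0.70 ± 0.027 (SE; limma, adjusted p = 1.99e-09). EIF4A1, the close relative that serves most cap-dependent initiation, had 257, 252 and 251 with amiodarone and 293, 288 and 292 in controls. It fell by 0.20 on the log2 scale (limma, adjusted p = 7.49e-06), and 29.8% of its exonic bases are shared with the readthrough gene SENP3-EIF4A1 and 41.1% with another annotated transcript on its strand. EIF4A3, the helicase of the exon junction complex, had 30.9, 31.8 and 30.6 with amiodarone, against 51.0, 53.8 and 53.3 in controls, a log2 fold change of -0.74. The cofactors that stimulate eIF4A were lower too. EIF4H averaged 83.9 ± 1.63 with amiodarone and 124 ± 2.18 in controls, and EIF4B averaged 136 ± 2.32 with amiodarone and 151 ± 1.84 in controls (SD, n = 3 each).

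Among cap-binding genes EIF4E and EIF4E3 were higher and EIF4E2 was lower. EIF4E, the cap-binding subunit of eIF4F, had 8.80, 8.41 and 8.45 with amiodarone, against 7.43, 6.95 and 7.72 in controls. The groups were apart, and the log2 fold change of 0.19 (limma, adjusted p = 0.00485) was 0.11 and not called with values scaled to equal sums (adjusted p = 0.071). EIF4E3, a less studied relative, had 4.04, 4.73 and 4.64 with amiodarone and 2.56, 2.68 and 2.47 in controls. Its mean was 1.74 times as high (log2 fold change 0.61; limma, adjusted p = 7.20e-06). EIF4E2, which encodes 4EHP, a cap-binding repressor, had 38.4, 35.9 and 37.9 with amiodarone and 50.8, 45.9 and 45.0 in controls, with no overlap and a log2 fold change of -0.33. EIF4ENIF1, the eIF4E transporter that takes part in mRNA storage, had 6.28, 6.26 and 6.67 with amiodarone, against 8.98, 8.69 and 8.37 in controls.

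All 3 genes of the 4E-binding proteins, the repressors of eIF4E, were called lower, as were 44.8% of all tested genes. EIF4EBP2 had 11.95, 12.3 and 12.7 with amiodarone, against 23.9, 22.9 and 23.8 in controls. The amiodarone mean was 0.524 of the control mean (log2 fold change -0.88 ± 0.039, SE; limma, adjusted p = 5.59e-09). EIF4EBP3 had 14.04, 17.3 and 13.1 with amiodarone and 23.4, 21.3 and 23.1 in controls; 73.4% of its exonic bases are shared with the readthrough gene ANKHD1-EIF4EBP3, so these reads may come from either. EIF4EBP1, by level the main member, had 216, 219 and 209 with amiodarone and 220, 231 and 232 in controls. Its groups only just missed each other. The fall of 0.08 (limma, adjusted p = 0.0218) was no longer called without amiodarone replicate 3 (-0.06), control replicate 2 (-0.07) or control replicate 3 (-0.07). Nor was it called with scaling by the median of ratios (-0.04) or a trimmed mean of log ratios (-0.06). With eBayes without trend the call ended as well (limma, adjusted p = 0.0899). The 3 genes together summed to 242 ± 7.09 with amiodarone and 273 ± 5.92 in controls (SD, n = 3 each).

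**Figure D3:**
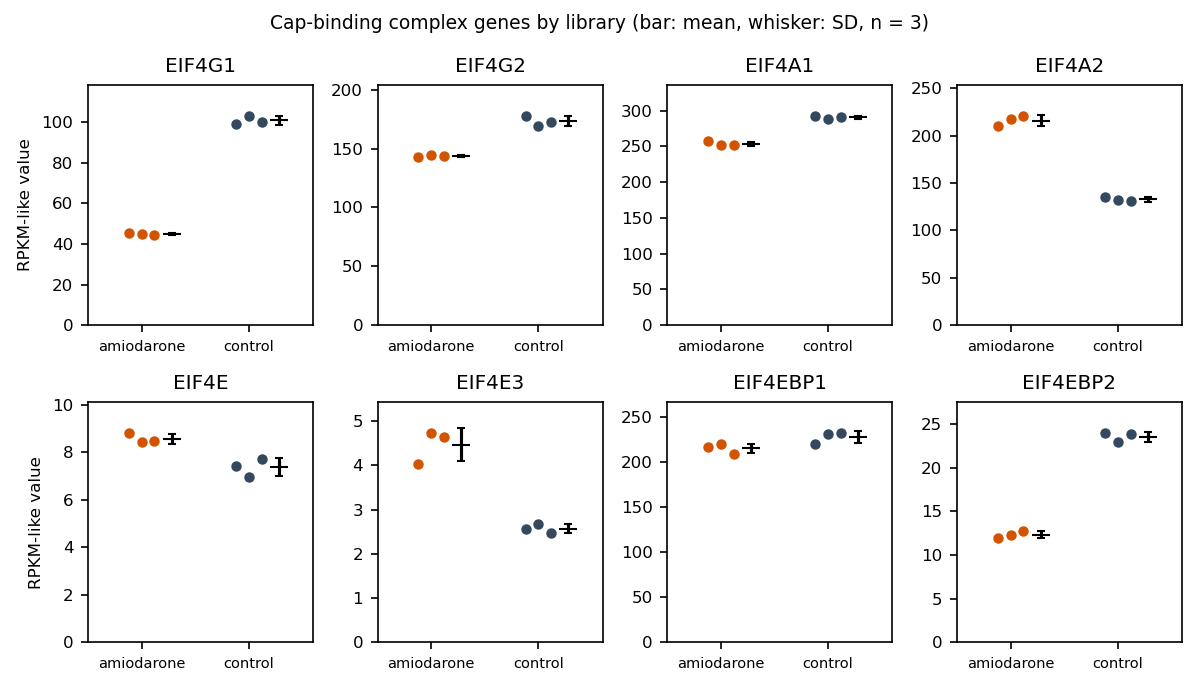
RPKM-like value of 8 genes of the cap-binding complex in each library, amiodarone at the left and control at the right of each panel, with bars for the mean and whiskers for the SD (n = 3). EIF4G1 and EIF4EBP2 are lower and EIF4A2 and EIF4E3 higher with amiodarone without overlap, while the EIF4EBP1 groups lie close together.

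The eIF3 subunits did not change as one unit. Of the 14 genes 2 were called higher, 8 lower and 4 had no call. EIF3B, the scaffold of the subunits at the periphery, had 46.7, 46.8 and 47.8 with amiodarone, against 95.7, 97.1 and 94.0 in controls. No other subunit was lowered as far, with a log2 fold change of -1.01 ± 0.027 (SE; limma, adjusted p = 1.25e-10). EIF3D, a subunit that can bind the cap of some mRNAs, averaged 158 ± 2.20 with amiodarone and 221 ± 1.76 in controls, a log2 fold change of -0.48. EIF3A, the largest subunit, averaged 36.0 ± 1.21 with amiodarone and 45.9 ± 0.134 in controls, at -0.34 on the log2 scale (SD, n = 3 each). EIF3G, EIF3H, EIF3I and EIF3K were not called, with log2 fold changes between 0.02 and 0.04. EIF3E, on the other hand, was called higher, averaging 340 ± 14.5 with amiodarone and 302 ± 6.96 in controls, although its log2 fold change of 0.17 was 0.08 and not called under scaling to equal sums (adjusted p = 0.0547).

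EIF3M, the eIF3 gene with the highest level, had 362, 373 and 379 with amiodarone and 396, 390 and 388 in controls. This fall was small, 0.08 on the log2 scale. It was not called after scaling by the median of ratios (-0.04) or a trimmed mean of log ratios (-0.05). With eBayes without trend it was not called either (limma, adjusted p = 0.0787). EIF3F, EIF3J and EIF3L were also lower, by 0.14, 0.18 and 0.09. By structure, 5 of the 8 genes of the octamer core (A, C, E, F, H, K, L and M) were called lower, and the median change was -0.08 in log2. Of the 5 genes outside it (B, D, G, I and J) 3 were called lower, with a median of -0.18. Of all tested genes 44.8% were called lower.

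EIF3C has a near-identical copy, EIF3CL, and how reads were split between them is not given in the sources used here. EIF3C had 218, 226 and 224 with amiodarone, against 330, 327 and 317 in controls, whereas EIF3CL had 49.8, 40.6 and 39.1 with amiodarone, against 8.22, 23.8 and 26.6 in controls. The copy was therefore called higher (log2 fold change 1.25; limma, adjusted p = 0.00388), with a far wider spread among controls than any other factor gene, and the value was 0.75 without control replicate 1. Their sum was steadier, at 267, 266 and 263 with amiodarone and 338, 351 and 344 in controls. Tested in place of EIF3C, this sum had a log2 fold change of -0.37 ± 0.023 (SE; limma, adjusted p = 6.08e-08), an alternative chosen after the values were seen.

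Genes of start codon choice and of subunit joining were split. EIF1, which makes start codon choice strict, had 542, 524 and 518 with amiodarone, against 354, 360 and 345 in controls. Every amiodarone library was far above the controls, at 1.5 times the control mean (log2 fold change 0.58 ± 0.025, SE; limma, adjusted p = 4.69e-09). Its relative EIF1B had 36.4, 40.3 and 35.1 with amiodarone and 36.6, 37.2 and 37.0 in controls, overlapping and not called. EIF1AX, which encodes the partner eIF1A, went down, with 17.9, 18.2 and 18.98 with amiodarone and 28.7, 27.9 and 29 in controls, a log2 fold change of -0.61. EIF1AD, a nuclear protein with an eIF1A-like domain, had 10.2, 9.75 and 9.14 with amiodarone, against 15.6, 16.7 and 16.6 in controls.

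EIF5, the GTPase activator of eIF2 that acts against eIF1 at start codons, was higher as well. It had 46.4, 47.3 and 48.8 with amiodarone and 32.1, 32.2 and 32.6 in controls, a log2 fold change of 0.54 ± 0.031 (SE; limma, adjusted p = 3.64e-08). EIF5B, the GTPase of subunit joining, averaged 36.8 ± 1.78 with amiodarone and 35.4 ± 1.28 in controls and was not called. EIF5A, the factor that carries hypusine and eases peptide bonds at difficult sites, fell. Its values were 149, 140 and 135 with amiodarone, against 228, 235 and 233 in controls, with no overlap and a log2 fold change of -0.71 (limma, adjusted p = 8.33e-09). The minor form EIF5A2 had 3.54, 3.36 and 3.94 with amiodarone and 3.51, 3.20 and 3.22 in controls, with overlapping groups and no call. EIF6, which keeps the large subunit from joining early, had 177, 171 and 176 with amiodarone, against 202, 203 and 206 in controls, a fall of 0.22 on the log2 scale.

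Genes of eIF2 and of its exchange factor eIF2B changed in both directions, those of the eIF2 subunits by at most 0.24 on the log2 scale. EIF2S1, whose protein is phosphorylated in the integrated stress response, had 12.01, 12.1 and 11.5 with amiodarone and 13.6, 13.1 and 13.5 in controls. That is a fall of 0.16 on the log2 scale (limma, adjusted p = 0.00348). EIF2S2, the beta subunit, had 175, 177 and 172 with amiodarone, against 148, 149 and 146 in controls, and rose by 0.24. EIF2S3, the gamma subunit that binds GTP, was 1.07 times as high (log2 fold change 0.10), which was 0.01 under scaling to equal sums, and its copy EIF2S3B was not called. EIF2A, a factor proposed to deliver initiator tRNA without eIF2, had the largest change among the EIF2 genes, with 106, 116 and 114 with amiodarone and 78.5, 78.2 and 78.3 in controls (log2 fold change 0.51; limma, adjusted p = 1.42e-07). EIF2D, another such factor, averaged 41.3 ± 0.849 with amiodarone and 45.7 ± 1.10 in controls (SD, n = 3 each) and was called lower.

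In eIF2B the subunit gene EIF2B4 had 31.9, 35.2 and 30.9 with amiodarone, against 45.8, 46.9 and 47.0 in controls. EIF2B1, another subunit gene, had 33.9, 33.3 and 35.2 with amiodarone and 45.2, 45.7 and 47.0 in controls. Both fell without overlap, by 0.50 and 0.42 on the log2 scale, as did EIF2B5, the catalytic subunit, by 0.34. EIF2B2 and EIF2B3 were called higher with log2 fold changes of 0.20 and 0.14. The calls of both ended under scaling to equal sums (0.12 and 0.05) and without control replicate 2 (0.12 and 0.08). They also ended without amiodarone replicates 1 or 3, and that of EIF2B3 without amiodarone replicate 2 or control replicate 1 as well.

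Elongation factors stood at the highest levels. EEF1A1 had 5346, 5357 and 5452 with amiodarone, against 4628, 4634 and 4641 in controls. The amiodarone libraries lay above all controls, at 1.16 times the control mean (log2 fold change 0.22; limma, adjusted p = 1.10e-06). Its exchange subunits moved otherwise: EEF1B2 averaged 1064 ± 3.81 with amiodarone and 1187 ± 23.6 in controls (SD, n = 3 each) and was called lower, and EEF1G and EEF1D were not called. EEF1G shares 99.9% of its exonic bases with an annotated readthrough gene on its strand. EEF1E1, a scaffold of the tRNA synthetase complex, fell by 0.11. EEF1A1 has processed copies in the genome, and EIF5A has EIF5AL1, so that reads of these genes too may have been split. Exons of EIF6 (17.4%), EIF3L (41.1%) and EEF1E1 (18.7%) overlap another gene on their strand, and those of EEF1D (31.2%), EIF2B2 (20.2%), EIF4E2 (16.6%), EEF1AKMT3 (16.0%) and EEFSEC (15.3%) one on the opposite strand.

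EEF2, the translocase, had 2135, 2060 and 2104 with amiodarone and 2168, 2234 and 2192 in controls. The fall of 0.07 on the log2 scale (limma, adjusted p = 0.0158) was no longer called without amiodarone replicate 2 or control replicate 2 (each -0.05). In limma it was also not called with the replicate number as a block (adjusted p = 0.0501), without a filter (0.0557) or with eBayes without trend (0.113). Scaling by the median of ratios (-0.03) or a trimmed mean of log ratios (-0.04) ended the call too. EEF2K, the kinase that inactivates eEF2, had 8.55, 8.78 and 8.39 with amiodarone, against 10.2, 10.3 and 11.0 in controls. It was lower in each library, by 0.26 (limma, adjusted p = 3.54e-04). EEFSEC, the elongation factor for selenocysteine, had 24.9, 24.1 and 24.8 with amiodarone and 25.9, 28.3 and 26.2 in controls. Its fall of 0.12 was not called without amiodarone replicate 2 (-0.10) or without control replicate 2 (-0.08). Nor was it called under scaling by the median of ratios (-0.08) or a trimmed mean of log ratios (-0.09).

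Of the 5 genes for enzymes that methylate lysines of elongation factors, 3 were lower and 2 higher. Of all tested genes 44.8% were called lower and 33.5% higher, so this count says little about the enzymes as a set. EEF2KMT, which modifies eEF2, had 5.99, 4.63 and 4.99 with amiodarone, against 12.1, 12.6 and 11.2 in controls. The highest amiodarone value was far below the lowest control value (log2 fold change -1.06 ± 0.077, SE; limma, adjusted p = 2.73e-07); 29.3% of its exonic bases lie opposite ALG1, and whether counting used strand is not given in the sources used here. EEF1AKMT1 had 5.34, 6.10 and 5.73 with amiodarone and 10.1, 8.94 and 10.4 in controls. EEF1AKMT4 had 26.5, 26.0 and 26.4 with amiodarone, against 41.2, 43.4 and 40.6 in controls. It shares 26.3% of its exonic bases with its readthrough gene and lies opposite CAMK2N2 over 20.5%. EEF1AKMT2 and EEF1AKMT3 were higher by 0.16 and 0.14. Neither was called under scaling to equal sums (0.08 and 0.06) or without control replicate 2 (0.14 and 0.13); the first was also not called without amiodarone replicate 2 (0.12), and the second without amiodarone replicate 3 (0.11) or control replicate 1 (0.13).

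Ratios of the plain values of related genes within a library do not depend on the scaling between libraries. The log2 ratios and their test had 1 added to each value, so they depend on it somewhat, most for low genes. Ratios not given in log2 are those of the plain values, averaged over the libraries of a group. In each of the 9 pairs with both genes tested, the groups did not overlap. Single genes did not overlap in 79.3% of all tested genes, and other gene pairs were not examined. The lack of overlap is therefore not shown to be particular to these pairs. For each pair the exact two-sided permutation test gave p = 0.1, the smallest it allows with 3 against 3. The log2 ratio of EIF4A2 to EIF4A1 was -0.29, -0.21 and -0.19 with amiodarone, against -1.10, -1.12 and -1.15 in controls. EIF4A2 transcripts thus stood at 0.852 of the EIF4A1 level with amiodarone and at 0.457 in controls. EIF4G2 stood at 3.20 times EIF4G1 with amiodarone and 1.72 times in controls, and EIF4G3 at 0.210 of EIF4G1 with amiodarone and 0.0945 in controls. The ratio of EIF4E3 to EIF4E was 0.524 with amiodarone and 0.350 in controls. EIF4EBP2 stood at 0.0574 of EIF4EBP1 with amiodarone and at 0.104 in controls.

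**Figure D4:**
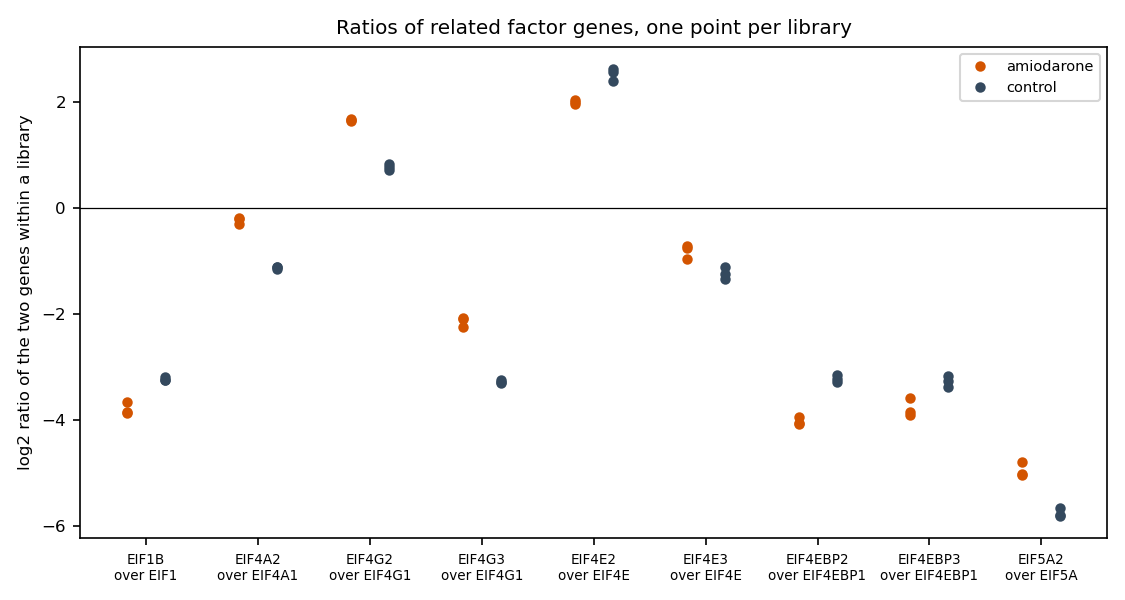
Log2 ratio of 9 pairs of related factor genes within each library, with 1 added to each value, amiodarone left and control right of each pair. The points of the groups are apart in all pairs, upward with amiodarone for EIF4A2 over EIF4A1 (a difference of 0.89) and EIF4G3 over EIF4G1 (1.14) and downward for EIF4EBP2 over EIF4EBP1 (-0.80).

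Factor genes whose annotated start opens a pyrimidine run were mostly little changed. A RefSeq promoter was matched for 52 of the 65 genes, 50 of them tested, and a gene was counted if any of its starts had C followed by at least 4 bases that are C or T. This held for 13 tested factor genes (26.0%), for 7.79% of all tested genes with a sequence and for 74.6% of the 63 ribosomal protein genes with one. Of the 13, 4 were called higher, 7 lower and 2 neither way. Their log2 fold changes had a median of -0.07 and ranged from -0.48 (EIF3D) to 0.70 (EIF4A2). Among the 37 without a tract 7 were higher and 24 lower, with a median of -0.22. Changes under -0.5 were seen in 0 of the 13 and in 12 of the 37, and changes above 0.5 in 2 of the 13 and in 3 of the 37. Over all tested genes 10.0% with a tract and 16.4% without one lay under -0.5, and 39.2% and 46.1% were called lower. Above 0.5 lay 87 of 729 with a tract and 985 of 8625 without one. Over all tested genes the medians were 0.01 with and -0.07 without a tract, and no test of these differences was made. The 9 factor mRNAs known as TOP mRNAs lay between -0.16 (EEF1B2) and 0.22 (EEF1A1), with 2 called higher and 4 lower. Among them EEF1G was counted as without a tract, and EEF1D, EIF3E and EIF3H had no sequence.

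**Figure D5:**
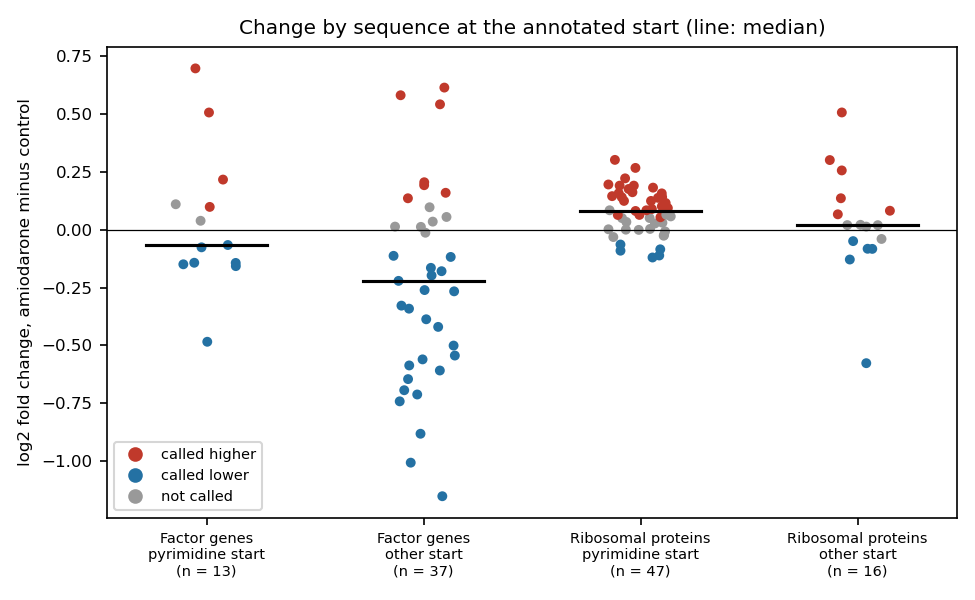
Log2 fold change, amiodarone minus control, of tested factor genes and cytosolic ribosomal protein genes by whether an annotated start opens a pyrimidine run; points are genes coloured by call, lines medians. Factor genes with such a start have a median of -0.07, and those without reach down to -1.15.

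Upstream of the starts, the E-box CACGTG, a palindrome that MYC and related factors bind, was found within 250 bases in 15 of the 52 factor genes with a sequence (28.8%). It occurs in 11.6% of tested genes and in 6.34% of all 35116 RefSeq promoters. Of the 14 tested factor genes with an E-box 9 were called lower, 2 higher and 3 were not called; of all tested genes with an E-box 47.8% were called lower, and of all tested factor genes 58.1%. These windows show it in capitals for genes that fell (EIF4G1, EIF4A3) and for one that rose (EIF4E), each 5′ to 3′ on the gene's strand (RefSeq, GRCh38.p14).
EIF4G1, chr3:184314509-184314574, plus strand: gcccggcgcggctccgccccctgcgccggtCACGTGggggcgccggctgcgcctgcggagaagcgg
EIF4A3, chr17:80147214-80147279, minus strand: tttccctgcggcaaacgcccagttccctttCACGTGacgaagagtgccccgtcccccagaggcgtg
EIF4E, chr4:98929170-98929235, minus strand: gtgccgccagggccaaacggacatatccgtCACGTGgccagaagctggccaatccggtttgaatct
The core of the element bound by ATF4 with C/EBP proteins, TGATGNAA on either strand, was in the window of 1 factor gene, EIF4E3, and in 2.14% of tested genes. A match is a description of the letters and says nothing of binding.

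Partners of the factors gave a mixed picture. For the counts here and in the next paragraph, 33.5% of all tested genes were called higher and 44.8% lower. Counts near these shares say little about a list. Among 9 genes that control eIF2, 4 were higher and 2 lower. Beside PPP1R15A (181 ± 2.54 with amiodarone and 47.8 ± 1.58 in controls), a phosphatase subunit for eIF2, the stress factor gene DDIT3 rose most, at 2.58 on the log2 scale. ATF4, whose mRNA is translated when eIF2 is phosphorylated, averaged 568 ± 5.46 with amiodarone and 497 ± 4.16 in controls, and IMPACT, which restrains the kinase GCN2, was lower. Of the kinase genes EIF2AK3 (PERK) was higher, by 0.23, and EIF2AK1 (HRI) lower, by 0.25. Of 11 poly(A)-binding and cap-side partners 4 were lower and 1 higher. LARP1, a binder of TOP mRNAs, averaged 34.4 ± 0.570 with amiodarone and 59.6 ± 0.474 in controls, and PABPC1, the main poly(A)-binding protein, 472 ± 14.3 with amiodarone and 640 ± 8.99 in controls. Among 5 tested genes of termination and recycling 1, PELO, was higher and 3 were lower. Among the lower ones were the ribosome-splitting ATPase ABCE1 (30.3 ± 1.09 with amiodarone, 46.0 ± 0.413 in controls) and the release factor GSPT1 (19.8 ± 0.271 with amiodarone, 29.7 ± 0.579 in controls).

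Enzymes that modify the factors included 5 lower and 2 higher of 10. METTL13, which methylates eEF1A, averaged 9.62 ± 0.436 with amiodarone and 17.3 ± 0.697 in controls, and DPH2, of the diphthamide pathway of eEF2, 19.9 ± 0.0777 with amiodarone and 32.0 ± 0.781 in controls. Among 11 mitochondrial translation factors 6 were lower and 3 higher, and the pair of elongation factors TSFM (log2 fold change -0.71) and TUFM (-0.51) fell most. Of 13 genes of mTORC1 and the cap kinases 6 were lower and 4 higher. MTOR averaged 5.63 ± 0.240 with amiodarone and 8.90 ± 0.258 in controls, the mTORC1 inhibitor gene DDIT4 69.6 ± 2.62 with amiodarone and 45.0 ± 1.32 in controls, and RPS6KB1, the S6 kinase, was not called. The 79 ribosomal protein genes had 38 higher, 15 lower and a median of 0.06, against -0.12 for the factors. These calls rest on values not scaled between libraries. As a share of all values, the ribosomal protein genes were lower, at 29.90% to 30.31% with amiodarone and 30.45% to 30.94% in controls. RPS29 (log2 fold change 0.51) and RPS26 (-0.58) lay at the ends of the range of the ribosomal protein genes. All means are ± SD with n = 3 each, and the calls are those of limma over all tested genes.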

How the data were processed

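The deposited table holds 1 value per gene and library. Per the file headers no unit is named. As deposited, the values resemble RPKM (reads per length of gene and depth); TPM with part of its rows left out would look alike. Per the submitters' processing notes the tools were STAR 2.5.3a, fastp 0.23.4 and featureCounts and the build was GRCh38.p12, with no roles stated, and per the labels' protocols the library kit was stranded. How multi-mapped reads were counted is not given in the sources used here.

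Values were taken as deposited. The 11445 genes that reached 1 in 3 or more libraries were tested with limma 3.58.1 in R 4.3.3 (eBayes with trend, 4 residual and 6.59 prior degrees of freedom) on log2(value + 1), which understates changes of low genes, with no covariate. The procedure was also run on simulated data. Far fewer genes were changed there than were called here, so that run does not show how it performs on these data. Exonic overlaps come from GENCODE 29 (GRCh38), matched for all 65 genes. The members and lists were chosen with earlier results of these data known. Values in every library are given for the highest and the 2 most changed genes of each complex, for related pairs and for 7 genes set beforehand; EIF3C was added as the copy of EIF3CL, and other genes are given by means or counts. In partner lists the 2 most changed called genes and a few fixed ones are named; EIF2AK1, EIF2AK3 and IMPACT were added after their values were seen. Alternatives were the pseudocount, filter, scaling, variance prior, replicate block and leaving out each library.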

Additional observations from a re-analysis of the deposited data

How the results depend on the processing

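Of the 51 calls among factor genes, 37 held under all 15 alternatives, that of EIF4E3 held under the 14 in which it was tested (its values are below a minimum of 5), and the other 13 had log2 fold changes of at most 0.20 in size and ended under at least 1 of them. The number called higher was 8 with scaling to equal sums, where the main value was 15, and stayed between 11 and 15 when 1 library was left out; the number called lower then stayed between 33 and 36. The median log2 fold change of -0.12 became -0.20 with scaling to equal sums, -0.077 with the median of ratios, -0.092 with a trimmed mean of log ratios, -0.087 without a filter and -0.14 at a minimum value of 5, and lay between -0.13 and -0.090 without 1 library. The medians of the EIF5 genes (0.08) and of the EEF1 genes (0.01) became -0.0037 and -0.078 with scaling to equal sums. Under the median of ratios the calls of EIF3L (-0.05) and EEF1E1 (-0.07) also ended. EEF1G and EIF3G became called lower with scaling to equal sums, and EEF1D, EIF3I and EIF3K higher with the median of ratios. Of 538 recomputed values of the 36 genes named by the rule, 511 kept direction and call, 21 lost the call and 6 changed sign; the 9 ratios of related genes kept their direction under all alternatives tried for them. Among genes not called, EIF1B turned to -0.076 with scaling to equal sums and lay between -0.043 (without amiodarone replicate 2) and 0.053 without 1 library. EIF4G3 turned to 0.023 with the median of ratios and 0.0086 with the trimmed mean and lay between -0.043 and 0.034 (without amiodarone replicate 1) without 1 library. The cause was not tested. No pairing by replicate number was seen: deviations from the group means of same-numbered libraries correlated at -0.155, -0.018 and -0.023, and no library correlated best with its own number. Whether the samples were paired cannot be decided from 3 libraries a group. With the replicate number as a block 15 were called higher and 35 lower, the call of EEF2 being the one lost. The depth is an estimate, and the precision of values rests on 3 libraries a group.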
